A study of Arabidopsis thaliana with 12 samples.

Results

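The 10 genes described here are 3 root hair transcription factors and 7 root hair cell wall or cell surface proteins of Arabidopsis thaliana, out of 32833 genes in the deposited tables. They are RHD6, RSL2, RSL4, EXPA7, EXPA18, COBL9, PRP1, PRP3, LRX1 and RHS13. They were picked by identifier because several of them are higher in cry1 seedlings than in wild type. The genotype difference is therefore given for them as a description, without a test. All 10 identifiers were found in the tables, and 9 of the 10 passed the filter for testing, which asked that at least 3 libraries reach 1 TPM. RSL2 did not.

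RNA was sequenced from whole seedlings that were 10 days old and dark-grown. The 4 groups are cry1 seedlings given 1 h of blue light (cry1 blue; 40 µmol m-2 s-1), wild-type seedlings given the same light (WT blue), cry1 seedlings kept in the dark (cry1 dark) and wild-type seedlings kept in the dark (WT dark). The labels give no cry1 allele. Each group has 3 libraries, 12 in all, and nothing in the labels ties them to separate sowings. The p-values hence rest on a spread between libraries that may be technical.

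A root hair is a tubular outgrowth of a single root epidermal cell that grows at its tip. Patterning factors such as GL2 set which epidermal cells stay hairless. In the other cells the basic helix-loop-helix (bHLH) factor RHD6 starts the hair programme, and the related factors RSL2 and RSL4 act after it to drive hair growth. Their programme includes expansins, which loosen the wall, and proline-rich and extensin-type proteins, which are built into it. Cryptochrome 1, encoded by CRY1, is a blue light receptor.

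Values are in TPM, a transcript abundance that corrects for gene length and scales each library to about the same total. CRY1 itself had 0, 0.62 and 1.12 TPM in cry1 blue, 49.97, 23.81 and 32.98 TPM in WT blue, 0.92, 1.71 and 0.31 TPM in cry1 dark, and 59.64, 56.33 and 59.86 TPM in WT dark. Genotype labels and CRY1 levels thus matched in every library. Correlations of log2(TPM + 1) were 0.955 to 0.977 between libraries of a group and 0.822 to 0.956 between groups, and no library stood apart. Between 18409 and 19380 genes reached 1 TPM in a library. Read depth cannot be recovered from TPM, so values come without counting intervals, and a 0 means only that the table lists a gene at 0. Shoot markers and markers of the endodermis, an inner root layer, were both present in every library, summing to 140 to 418 TPM and 57.3 to 122 TPM. The RNA is from whole seedlings, so fewer root hair cells and less RNA per hair cell cannot be told apart in any value below.

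Promoter sequences are shown because 6 of the 10 genes hold the same short element just before their start. This element, the root hair-specific cis-element (RHE), is built around the letters TG and CACG with 4 or 5 other letters between them. Its definition came from root hair promoters that included those of EXPA7 and EXPA18, and RHS13 and PRP1 (also called RHS7) were named in a search that used it, so its presence in those 4 genes is no independent result. The 6 matches, read 5′ to 3′ on the strand that carries them, with the TG and CACG letters in capitals, are:
EXPA7: atagTGatccgCACGta
EXPA18: aacaTGaacgCACGtc
PRP1: atagTGttatgCACGat
PRP3: taagTGtaatgCACGat
LRX1: aactTGgacgCACGtt
RHS13: ataaTGcgactCACGtc
Those of EXPA7, EXPA18 and RHS13 lie on the gene's own strand, 78 to 62, 40 to 25 and 210 to 194 bases before the annotated start. Those of PRP1, PRP3 and LRX1 lie on the opposite strand, 129 to 113, 167 to 151 and 93 to 78 bases before it. The RefSeq assembly TAIR10.1 gave these bases and all coordinates below.

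Across the 27438 protein-coding genes, 0.915% hold an RHE in the 300 bases before the start. The looser spaced pair, TG and CACG with any 4 or 5 letters between them, searched on both strands and contained in every RHE match above, was found in 7 of the 10 promoters and in 10.4% of all promoters. COBL9 is the gene that adds to the 6. The G-box CACGTG, which shares its CACG with these elements and is bound by many light-response factors, was found in 0 of the 10 promoters against 7.09% of all promoters. The E-box CANNTG, the general bHLH site that includes the G-box, was in 6 of the 10 and in 61.9% of all. TATAAA was in 7 of the 10 and in 52.9% of all. With 1000 bases searched, RHE stayed at 6 of the 10 genes against 2.9% of all, and the G-box at 0 of the 10 against 14.8%. RHD6, RSL2, RSL4 and COBL9 had no RHE in either window. These matches describe letters only.

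The whole 300 bases are shown for the expansin EXPA7, whose element helped to define the motif, and for PRP3, the gene with the largest light response in wild type. RHE letters are in capitals, and the last base is the one before the annotated start. The EXPA7 stretch is chr1:4276205-4276504 and the PRP3 stretch is chr3:23182422-23182721, both on the plus strand of TAIR10.1, as are their genes.
EXPA7: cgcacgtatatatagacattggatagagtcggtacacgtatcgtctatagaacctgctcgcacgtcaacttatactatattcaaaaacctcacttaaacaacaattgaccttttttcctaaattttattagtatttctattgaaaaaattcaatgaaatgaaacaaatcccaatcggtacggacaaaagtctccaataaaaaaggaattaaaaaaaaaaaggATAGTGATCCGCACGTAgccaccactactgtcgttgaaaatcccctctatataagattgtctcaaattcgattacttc
PRP3: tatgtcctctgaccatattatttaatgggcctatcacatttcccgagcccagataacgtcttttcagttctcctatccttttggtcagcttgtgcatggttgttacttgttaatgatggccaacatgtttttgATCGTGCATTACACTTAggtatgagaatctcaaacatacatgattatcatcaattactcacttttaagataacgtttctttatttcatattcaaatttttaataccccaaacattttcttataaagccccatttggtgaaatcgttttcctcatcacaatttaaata
In PRP3 the capitals are the opposite-strand match given above, here read along the gene.

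**Figure D1:**
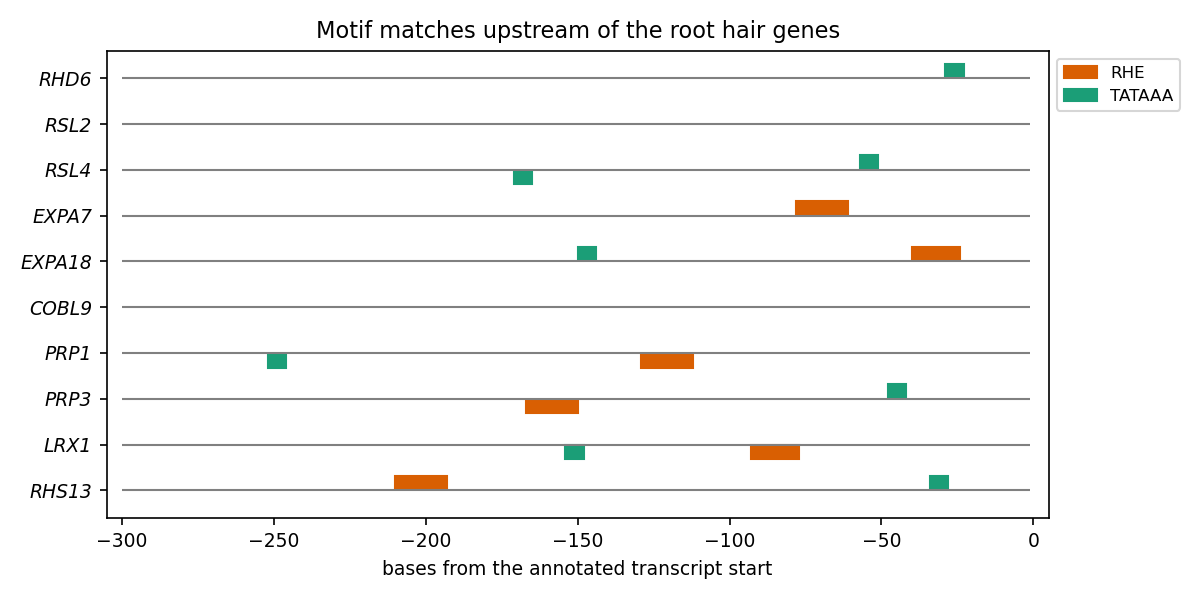
Positions of the RHE and TATAAA in the 300 bases before the annotated start of each of the 10 genes. The horizontal axis is the distance from the start in bases. RHE marks stand in 6 rows, EXPA7, EXPA18, PRP1, PRP3, LRX1 and RHS13. The other motifs are not drawn.

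The regulators were low in every library, at 4.36 TPM or less, and they did not share a single pattern. RHD6 (AT1G66470, chromosome 1, 24795214 to 24797015) had 2.15, 2.39 and 1.33 TPM in cry1 blue, 1.57, 0.56 and 1.58 TPM in WT blue, 1.19, 0.92 and 1.55 TPM in cry1 dark, and 1.42, 0.53 and 1.37 TPM in WT dark. Its 4 groups overlapped at every step, so the factor that starts the programme showed no separated groups. RSL2 (AT4G33880, chromosome 4, 16239363 to 16241169) had 1.53, 0.41 and 0.1 TPM in cry1 blue, 0.04, 0.09 and 0 TPM in WT blue, 0.64, 0.46 and 0.57 TPM in cry1 dark, and 0.58, 0.68 and 0.79 TPM in WT dark. Its lowest values were the 3 in WT blue, and 1 library, in cry1 blue, reached 1 TPM.

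RSL4 (AT1G27740, chromosome 1, 9654475 to 9656089), whose level is known to set hair length, had 4.36, 3.61 and 2.24 TPM in cry1 blue, 0.14, 0.05 and 0.24 TPM in WT blue, 0.72, 1.26 and 0.69 TPM in cry1 dark, and 0.55, 0.13 and 0.66 TPM in WT dark. The 3 cry1 blue libraries stood above all others, and the 2 WT groups overlapped. On the log2(TPM + 1) scale, which understates the change of low genes, cry1 exceeded WT by 1.92 (SE 0.24) in blue light and by 0.39 (SE 0.24) in the dark. The same differences were 0.42 (SE 0.27) and 0.1 (SE 0.27) for RHD6, and 0.6 (SE 0.23) and -0.11 (SE 0.23) for RSL2.

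The expansins EXPA7 and EXPA18, wall-loosening proteins of growing hairs, were higher in cry1 than in WT both in blue light and in the dark. EXPA7 (AT1G12560, chromosome 1, 4276505 to 4277969) had 28.5, 20.76 and 14.89 TPM in cry1 blue, 0.35, 0 and 1.89 TPM in WT blue, 7.66, 7.48 and 3.53 TPM in cry1 dark, and 0.48, 1.6 and 1.79 TPM in WT dark. EXPA18 (AT1G62980, chromosome 1, 23331563 to 23333246) had 21.88, 19.36 and 16.57 TPM in cry1 blue, 0.1, 0.1 and 1.19 TPM in WT blue, 7.79, 10.34 and 5.83 TPM in cry1 dark, and 0.95, 1.18 and 1.91 TPM in WT dark. For both genes every cry1 library lay above every WT library, every cry1 blue library lay above every cry1 dark library, and the 2 WT groups overlapped. The coding sequences of the pair are 75.4% identical.

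COBL9 (AT5G49270, chromosome 5, 19971884 to 19974530) encodes a COBRA-like surface protein needed for hair tip growth. It had 3.65, 3.65 and 3.54 TPM in cry1 blue, 0.15, 0.08 and 0.24 TPM in WT blue, 1.63, 1.96 and 1.38 TPM in cry1 dark, and 0.18, 0.52 and 1.09 TPM in WT dark. Its groups were ordered like those of the expansins, again with an overlap between the 2 WT groups.

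PRP1 and PRP3 encode proline-rich structural wall proteins, and their coding sequences are 83.8% identical. PRP1 (AT1G54970, chromosome 1, 20504901 to 20506504) had 21.53, 28.09 and 18.45 TPM in cry1 blue, 0.18, 0.05 and 0.35 TPM in WT blue, 11.76, 9.79 and 7.57 TPM in cry1 dark, and 1.64, 2.96 and 3.45 TPM in WT dark. PRP3 (AT3G62680, chromosome 3, 23182722 to 23184042) had 64.36, 66.4 and 52.17 TPM in cry1 blue, 0.36, 0 and 0.77 TPM in WT blue, 34.11, 25.9 and 19.14 TPM in cry1 dark, and 3.91, 9.56 and 10.95 TPM in WT dark. In both genes the 4 groups did not overlap at all.

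LRX1, a leucine-rich repeat extensin that shapes hairs, and RHS13, a gene named for its root hair expression, showed the same separated order. LRX1 (AT1G12040, chromosome 1, 4069992 to 4072681) had 7.91, 10.02 and 8.99 TPM in cry1 blue, 0.12, 0.02 and 0.11 TPM in WT blue, 6.72, 3.66 and 3.81 TPM in cry1 dark, and 1.22, 2.77 and 2.36 TPM in WT dark. RHS13 (AT4G02270, chromosome 4, 992111 to 993039) had 91.33, 75.16 and 60.16 TPM in cry1 blue, 0.98, 0.18 and 4.5 TPM in WT blue, 33.86, 44.31 and 29.94 TPM in cry1 dark, and 4.82, 8.21 and 12.08 TPM in WT dark. RHS13 and PRP3 were the most abundant of the 10 per unit of length in cry1.

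**Figure D2:**
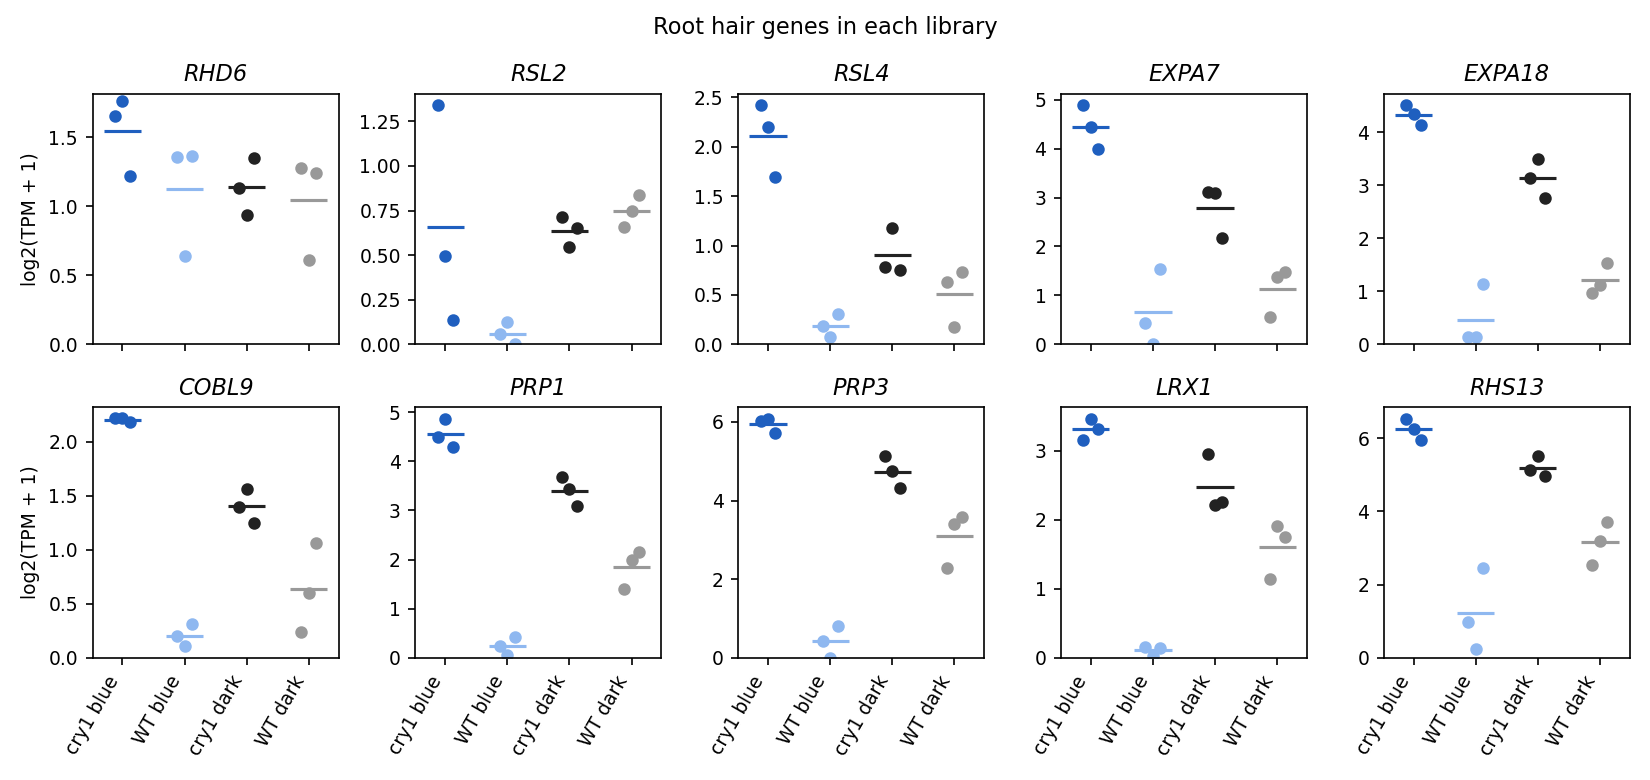
Level of each of the 10 genes in the 12 libraries, by group, on the log2(TPM + 1) scale. Points are libraries and a bar is the group mean on that scale. For EXPA7, EXPA18, COBL9, PRP1, PRP3, LRX1 and RHS13 all 6 cry1 values stand above all 6 WT values, while those of RHD6 overlap.

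In blue light the genotype difference, on which the genes were chosen, spanned 0.42 for RHD6 to 5.52 for PRP3 on the log2(TPM + 1) scale. It was 3.78 (SE 0.4) for EXPA7, 3.86 (SE 0.29) for EXPA18, 2 (SE 0.22) for COBL9, 4.3 (SE 0.25) for PRP1, 3.2 (SE 0.25) for LRX1 and 5.01 (SE 0.45) for RHS13. The 3 cry1 blue values lay above the 3 WT blue values for 9 of the 10 genes, RHD6 being the exception. Among the 20314 genes tested this held for 17.2%, and nothing is read from the comparison, since the rule used it.

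In the dark the wall genes also differed, by less. The differences were 1.65 for EXPA7, 1.93 for EXPA18, 0.77 for COBL9, 1.55 for PRP1, 1.65 for PRP3, 0.87 for LRX1 and 2.04 for RHS13. The 3 cry1 dark values lay above the 3 WT dark values for 8 of the 10 genes, RSL4 and the 7 wall genes, and for 9.97% of all tested genes. Over all tested genes the median difference was -0.02 in blue light and -0.29 in the dark. Nothing is read from the dark comparison either, since the genes were picked as higher in cry1.

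**Figure D3:**
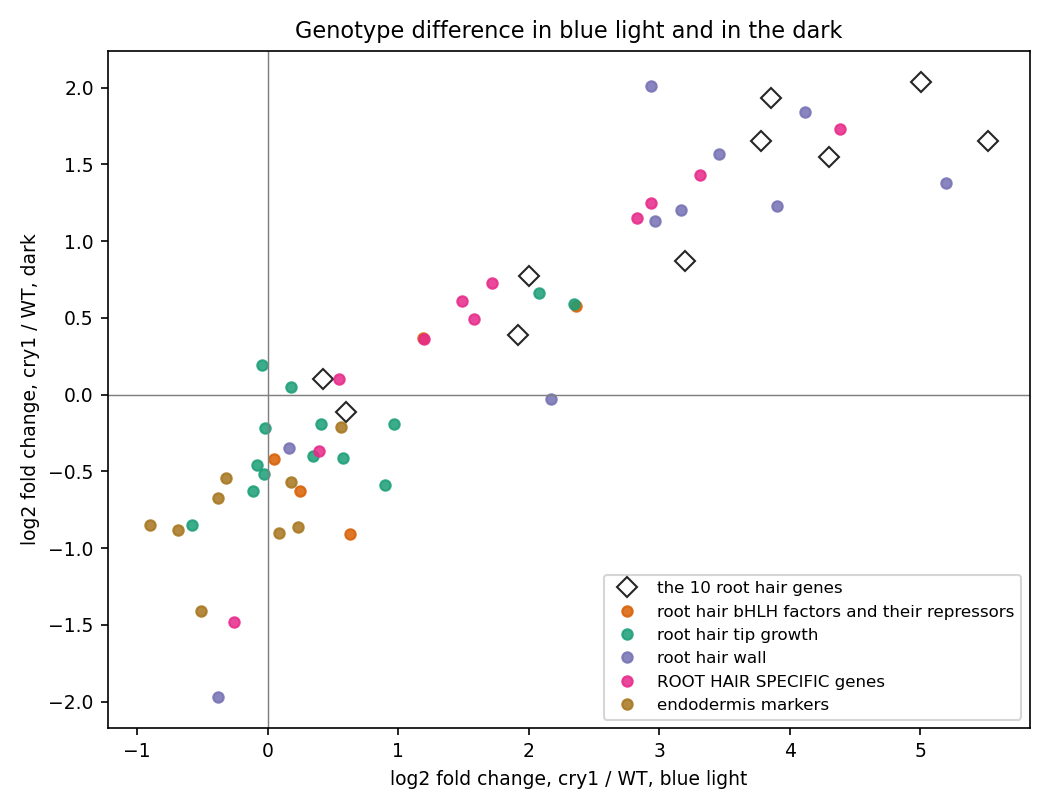
cry1 minus WT on the log2(TPM + 1) scale in blue light (horizontal axis) and in the dark (vertical axis). Shown are the 10 genes and the tested genes of some lists: bHLH factors and repressors, tip growth, root hair wall, RHS and endodermis. The 10 genes reach 5.52 in blue light and 2.04 in the dark, and no test applies to them here.

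The light response within a genotype is a separate comparison, tested with limma, although it shares its libraries with the genotype difference that chose the genes. In cry1, 7 of the 9 tested genes rose after 1 h of blue light and 0 fell, while 9.19% of all tested genes rose and 5.73% fell. The 7 were RSL4, EXPA7, EXPA18, COBL9, PRP1, PRP3 and LRX1. RSL4 reached 1 TPM in the 3 cry1 blue libraries and 1 other, so it passed the filter only through the group where it was high; of the other 8, 6 rose. RSL4 rose by 1.2 (SE 0.24, adjusted p = 0.00402), EXPA7 by 1.65 (SE 0.4, adjusted p = 0.014) and EXPA18 by 1.2 (SE 0.29, adjusted p = 0.0137). COBL9 rose by 0.8 (SE 0.22, adjusted p = 0.0259) and LRX1 by 0.83 (SE 0.25, adjusted p = 0.0397). PRP1 rose by 1.14 (SE 0.25, adjusted p = 0.00668) and PRP3 by 1.21 (SE 0.33, adjusted p = 0.0241).

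RHS13 and RHD6 did not pass in cry1. RHS13 had a difference of 1.05 (SE 0.45, adjusted p = 0.146), although its 3 blue values lay above its 3 dark values, and RHD6 had 0.4 (SE 0.27, adjusted p = 0.364). Blue values lay above dark values in cry1 for 8 of the 10 genes and for 15.9% of all tested genes. The count of 7 was sensitive to single libraries and to the pseudocount. It was 2, RSL4 and PRP1, without cry1 blue replicate 1 and again without cry1 dark replicate 3, and 4 without cry1 blue replicate 2. With a pseudocount of 0.1 in place of 1 it was 1, RSL4.

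In wild type, 4 of the 9 tested genes fell after 1 h of blue light and 0 rose, while 25.3% of all tested genes fell and 9.73% rose. The 4 were the wall genes that were above 1 TPM in all 3 WT dark libraries. PRP3 fell by 2.67 (SE 0.33, adjusted p = 7.97e-05), PRP1 by 1.6 (SE 0.25, adjusted p = 0.000452), LRX1 by 1.49 (SE 0.25, adjusted p = 0.000774) and RHS13 by 1.92 (SE 0.45, adjusted p = 0.00602). The other 5 had 0.08 (adjusted p = 0.84) for RHD6, -0.32 (adjusted p = 0.31) for RSL4, -0.49 (adjusted p = 0.363) for EXPA7, -0.74 (adjusted p = 0.0644) for EXPA18 and -0.43 (adjusted p = 0.145) for COBL9. RSL4 and COBL9 averaged under 1 TPM in WT dark, which leaves little room to fall on this scale.

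Blue values lay below dark values in wild type for 5 of the 10 genes, RSL2 and the 4 that fell, and for 38.9% of all tested genes. The median of all tested genes was -0.27 for the light response in wild type and -0.06 for that in cry1. Scaling by a trimmed mean (TMM-type) moved the wild-type median up by 0.27 and the shares of all genes called to 17.8% higher and 16.4% lower. Under it the same 4 genes fell, PRP3 by 2.46 and RHS13 by 1.7.

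**Figure D4:**
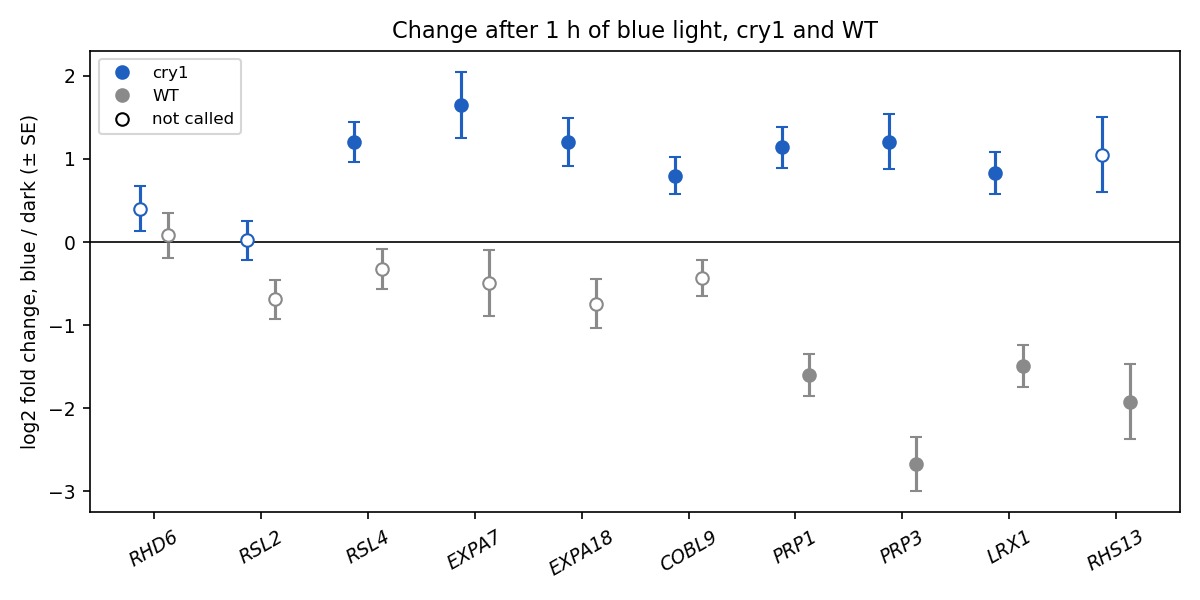
Light response, blue minus dark, on the log2(TPM + 1) scale for each of the 10 genes, cry1 left of WT, with SE bars. In cry1 the points of the 7 genes that rose run from 0.8 to 1.65, and in WT those of PRP3, RHS13, PRP1 and LRX1 lie between -2.67 and -1.49.

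PRP1, PRP3 and LRX1 passed the test in both genotypes, upward in cry1 and downward in wild type. In cry1 the calls of LRX1 and PRP3 were lost without cry1 blue replicate 1, cry1 blue replicate 2 or cry1 dark replicate 3, and all 3 calls with a pseudocount of 0.1. That of LRX1 was also lost without the filter, with only the 2 groups compared, and without cry1 blue replicate 3, cry1 dark replicate 2, WT blue replicate 3 or WT dark replicate 3 (adjusted p = 0.0514 to 0.108 over these 6 fits). The cry1 light response exceeded the WT light response by 3.88 for PRP3, 2.97 for RHS13, 2.74 for PRP1, 2.32 for LRX1, 2.13 for EXPA7, 1.94 for EXPA18, 1.53 for RSL4 and 1.23 for COBL9. These differences were not tested, because they contain the contrast that chose the genes. The order of the groups was cry1 blue, cry1 dark, WT dark, WT blue from high to low. The first and the second step were free of overlap in 8 of the 10 genes and the last, WT dark above WT blue, in 5. All 3 steps were free of overlap in PRP1, PRP3, LRX1 and RHS13. Summed over the 10 genes, the levels were 247, 230 and 178 TPM in cry1 blue, 3.99, 1.13 and 10.9 TPM in WT blue, 106, 106 and 74 TPM in cry1 dark, and 15.8, 28.1 and 36.4 TPM in WT dark.

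The genes shared a group pattern, which their choice partly fixed. Over the 12 libraries, Pearson's r of log2(TPM + 1) ran from 0.82 to 0.991 between pairs among RSL4 and the 7 wall genes, and from 0.368 to 0.658 between RHD6 and those genes. These libraries fall into 4 groups, so the values describe the group pattern and are not 12 independent points. Of all other tested genes with at least 5 TPM in their highest group, those most like the mean profile of the 9 tested genes were MOP10 (r = 0.991), RHS19 (0.988), AT3G09925 (0.986), RHS12 (0.986), FLA6 (0.985), COW1 (0.985), AT1G30870 (0.985) and GH9C1 (0.983). MOP10 and AT3G09925 are annotated as Pollen Ole e 1 allergen and extensin family proteins and AT1G30870 as a peroxidase. AT3G09925 was the only one of these 8 with an RHE in its 300 bases.

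Other known root hair genes were compared too. The rule did not choose them, but they were listed with earlier results of these data known. Of 49 such genes listed from general knowledge, 40 were tested, 5 of which, EXPA17, RHS9, RHS11, RHS14 and RHS16, passed the filter only through cry1 blue. In cry1 against WT in blue light 23 rose and 1 fell, 4 of those 5 among the risen, with a median of 1.08 against -0.02 for all genes, of which 10.9% rose and 14.3% fell. In the dark 10 rose and 6 fell, with a median of 0.14 against -0.29 for all genes, of which 5.33% rose and 23.5% fell. With TMM-type scaling the dark split was 15 that rose and 4 that fell, against 11.4% and 13.6% of all genes. Blue light in cry1 gave 10 that rose and 1 that fell, against 9.19% and 5.73% of all genes. The median was 0.41 against -0.06. Among these 10 were 3 of the 5 that passed the filter only through cry1 blue, EXPA17, RHS14 and RHS16. Blue light in wild type gave 0 that rose and 18 that fell, against 9.73% and 25.3% of all genes. The median was -0.61 against -0.27. The 11 calls in cry1 became 7 without cry1 blue replicate 1, 5 without cry1 blue replicate 2, 5 without cry1 dark replicate 3, 6 with only the 2 groups compared and 2 with a pseudocount of 0.1. AGP3 was already known from earlier results to follow this pattern, and reads shared between near-identical copies, such as neighbouring XTH genes, may be split between them.

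The clearest group among them was that of other root hair wall genes, all 10 of them tested. In blue light 8 rose in cry1 against WT and 0 fell, and in the dark 5 rose, XTH12, XTH14, XTH26, EXT12 and AGP3, and 1, CSLD3, fell. The shares of all tested genes were 10.9% higher and 14.3% lower in blue light, and 5.33% and 23.5% in the dark. AGP3, an arabinogalactan protein, had 83.87, 65.57 and 54.75 TPM in cry1 blue, 1.37, 0.17 and 1.29 TPM in WT blue, 27.52, 26.34 and 21.92 TPM in cry1 dark, and 6, 9.24 and 13.08 TPM in WT dark. XTH14, a xyloglucan-modifying enzyme, had 56.38, 57.41 and 42.38 TPM in cry1 blue, 2.4, 0.95 and 3.18 TPM in WT blue, 28.94, 34.78 and 24.61 TPM in cry1 dark, and 5.24, 5.97 and 12.65 TPM in WT dark. Both had the group order seen in PRP3, with no overlap.

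In cry1 against WT under blue light AGP3 rose by 5.2 (SE 0.3, adjusted p = 7.65e-07), XTH14 by 4.12 (SE 0.32, adjusted p = 5.83e-06) and the extensin EXT12 by 3.9 (SE 0.32, adjusted p = 9.92e-06). Blue light raised 3, XTH12, EXPA17 and AGP3, in cry1, and lowered 7 of the 10 in wild type, or 5 with TMM-type scaling. It raised 9.19% of all tested genes in cry1 and lowered 25.3% in wild type. EXPA17 passed the filter only through cry1 blue. Leaving out any of several libraries ended the cry1 calls of XTH12 and EXPA17, with adjusted p up to 0.073. With a pseudocount of 0.1 all 3 were lost (adjusted p = 0.0619 for XTH12, 0.108 for EXPA17 and 0.0891 for AGP3), and XTH12 and EXPA17 also with only the 2 groups compared. The dark call of EXT12 was lost without WT dark replicate 1 (adjusted p = 0.0702). LRX2, a close relative of LRX1, differed from this order in that its 2 dark groups overlapped and its cry1 blue group overlapped with cry1 dark. It had 9.91, 13.98 and 12.78 TPM in cry1 blue, 3.07, 0.72 and 2.52 TPM in WT blue, 22.67, 11.54 and 14.78 TPM in cry1 dark, and 12.89, 21.45 and 15 TPM in WT dark.

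Of the 16 ROOT HAIR SPECIFIC (RHS) genes listed beside RHS13, 11 were tested. In cry1 against WT, 8 rose and 0 fell in blue light, while in the dark 5 rose, RHS12, RHS14, RHS15, RHS18 and RHS19, and 1, RHS5, fell. The shares of all tested genes were 10.9% higher and 14.3% lower in blue light, and 5.33% and 23.5% in the dark. RHS19 rose by 4.39 (SE 0.26, adjusted p = 7.65e-07) in blue light and by 1.73 (SE 0.26, adjusted p = 0.00113) in the dark. Blue light raised 5 in cry1, RHS12, RHS14, RHS15, RHS16 and RHS19, and lowered 3 in wild type, RHS5, RHS18 and RHS19, or 2 with TMM-type scaling. It raised 9.19% of all tested genes in cry1 and lowered 25.3% in wild type. RHS9, RHS11, RHS14 and RHS16 passed the filter only through cry1 blue. RHS12 lost its cry1 call without cry1 blue replicate 2, cry1 dark replicate 1 or cry1 dark replicate 3 (adjusted p = 0.057 to 0.0676) and with a pseudocount of 0.1 (0.188), and RHS19 with that pseudocount (0.0687).

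Among 5 tested bHLH relatives and repressors of RSL4, the factors LRL3 and LRL2 rose in cry1 against WT in blue light, by 2.36 (SE 0.36, adjusted p = 0.00056) and by 1.19 (SE 0.28, adjusted p = 0.00718). LRL3 also rose with blue light in cry1, by 1.37 (SE 0.36, adjusted p = 0.0208), a call lost without cry1 blue replicate 1 (adjusted p = 0.09) or cry1 dark replicate 3 (adjusted p = 0.0851). In the dark LRL3 and LRL2 did not pass, with 0.58 (adjusted p = 0.242) and 0.37 (adjusted p = 0.341). GTL1 and OBP4, repressors of RSL4, did not pass in blue light, with 0.63 (adjusted p = 0.084) and 0.25 (adjusted p = 0.365). In the dark they fell in cry1 against WT by 0.91 (SE 0.25, adjusted p = 0.0187) and by 0.63 (SE 0.19, adjusted p = 0.0235), and OBP4 did not pass with TMM-type scaling (adjusted p = 0.2) or without any of cry1 dark replicate 2, cry1 dark replicate 3, WT dark replicate 1 or WT dark replicate 3 (adjusted p = 0.0506 to 0.107). GTL1 lost its call in the dark without cry1 dark replicate 2, WT dark replicate 1 or WT dark replicate 2, with adjusted p of 0.0892, 0.0605 and 0.0717. Both repressors also fell in wild type after blue light, GTL1 by 1.51 (SE 0.25, adjusted p = 0.000711) and OBP4 by 0.82 (SE 0.19, adjusted p = 0.00501), which with TMM-type scaling gave an adjusted p of 0.0579 for OBP4. For cry1 against WT, 10.9% of all tested genes rose in blue light and 23.5% fell in the dark. Blue light raised 9.19% in cry1 and lowered 25.3% in wild type.

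Of 14 tested tip growth genes, 5 rose, COW1, MRH1, MRH6, SHV3 and ACT2, and 1, the GTPase ROP6, fell in cry1 against WT in blue light. ROP6 lost its call without cry1 blue replicate 2 or 3 or WT blue replicate 1 or 2 (adjusted p = 0.0527 to 0.0776), and SHV3 without cry1 blue replicate 3 or WT blue replicate 2 (0.0615 and 0.0636). COW1, a phosphatidylinositol transfer protein of hair tips, rose by 2.35 (SE 0.23, adjusted p = 3.87e-05). In the dark 0 of the 14 rose and 2 fell, ROP2 and ROP6, against 2 that rose and 1 that fell with TMM-type scaling. The shares of all tested genes were 10.9% higher and 14.3% lower in blue light, and 5.33% and 23.5% in the dark. Blue light lowered 6 of the 14 in wild type, against 25.3% of all tested genes. Genes with broad roles outside hairs, such as FER and ACT2, stand in this list beside hair genes.

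Genes that set the hair pattern of the epidermis were tested as a further list. Of all tested genes, 10.9% rose in cry1 against WT in blue light and 23.5% fell in the dark. Of 8 tested, 4 rose in cry1 against WT in blue light, GL2, MYB23, EGL3 and SCM, and 3 fell in the dark, GL2, WER and TTG1. The dark count was 2 with TMM-type scaling and 1 with quantile normalization, under which GL2 did not pass (adjusted p = 0.0941); GL2 also lost it without cry1 dark replicate 2 (0.0714) or WT dark replicate 2 (0.0789). GL2, which keeps cells hairless, had 5.47, 3.8 and 4.78 TPM in cry1 blue, 1.57, 0.82 and 1.65 TPM in WT blue, 4.53, 3.29 and 4.63 TPM in cry1 dark, and 7.18, 9.66 and 7.31 TPM in WT dark. It was highest in WT dark, where the 7 wall genes were not, and did not pass for a light response in cry1. CPC, which promotes hair fate, rose in wild type after blue light, by 0.75 (SE 0.25, adjusted p = 0.0323).

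Markers of other root tissues were measured beside these changes. For cry1 against WT, 10.9% of all tested genes rose and 14.3% fell in blue light. In the dark 5.33% of all tested genes rose and 23.5% fell. Of 9 endodermis markers, 0 rose and 0 fell in cry1 against WT in blue light, and 6 fell and 0 rose in the dark, among them CASP1 and CASP2; with TMM-type scaling 1 rose in blue light and 2 fell in the dark. Their summed levels were 87.3 to 93.7 TPM in cry1 blue, 69.5 to 114 TPM in WT blue, 57.3 to 77.2 TPM in cry1 dark, and 106 to 122 TPM in WT dark. Of 4 tested stele markers 1, WOL, rose in blue light and 1, APL, fell in the dark, against 3 and 0 with TMM-type scaling, and the 6 listed summed to 45.2 to 71.7 TPM in cry1 blue and 39.3 to 48.9 TPM in WT blue. The 6 root tip and cap markers summed to 1.2 to 5.47 TPM in all libraries. In the dark the summed endodermis level was thus lower in every cry1 library than in any WT library.

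A list of root surface genes, mostly for nutrient uptake, also holds BGLU23, a beta-glucosidase of ER bodies. Of 6 tested, 5 rose in cry1 against WT in blue light, IRT1, NRT2.1, PHT1;1, TIP2;3 and BGLU23, and 0 fell, while in the dark 0 rose and 1, the proton pump AHA2, fell, a call lost with TMM-type scaling. Blue light raised 3 in cry1, IRT1, NRT2.1 and TIP2;3, and lowered 4 in wild type, IRT1, AHA2, PHT1;1 and BGLU23. Of all tested genes it raised 9.19% in cry1 and lowered 25.3% in wild type. NRT2.1 and IRT1 passed the filter only through cry1 blue, since 0 and 1 of the other libraries reached 1 TPM. TIP2;3, an aquaporin, had 42.03, 20.05 and 31.85 TPM in cry1 blue, 0.22, 0.28 and 0.29 TPM in WT blue, 4.59, 4.17 and 0.82 TPM in cry1 dark, and 0.52, 1.21 and 1.37 TPM in WT dark. The iron transporter IRT1 was listed at 0 in all 3 WT blue libraries and had 2.41, 2.52 and 3.01 TPM in cry1 blue. The 7 listed genes summed to 2270 to 2660 TPM in cry1 blue, 977 to 1400 TPM in WT blue, 1840 to 1980 TPM in cry1 dark, and 2280 to 2700 TPM in WT dark. Without BGLU23 they summed to 403 to 490 TPM in cry1 blue, 209 to 351 TPM in WT blue, 369 to 701 TPM in cry1 dark, and 751 to 995 TPM in WT dark. Of 9 tested shoot markers 1, PDF1, rose in cry1 against WT in blue light and 0 fell, and in the dark 3 fell, YAB3, STM and FAMA; with TMM-type scaling 2 rose and 1 fell in blue light. The 10 listed summed to 341 to 418 TPM in cry1 blue and 140 to 266 TPM in WT blue, and without PDF1 to 113 to 147 TPM in cry1 blue and 100 to 154 TPM in WT blue. The part of these marker shifts in the hair gene differences was not tested.

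**Figure D5:**
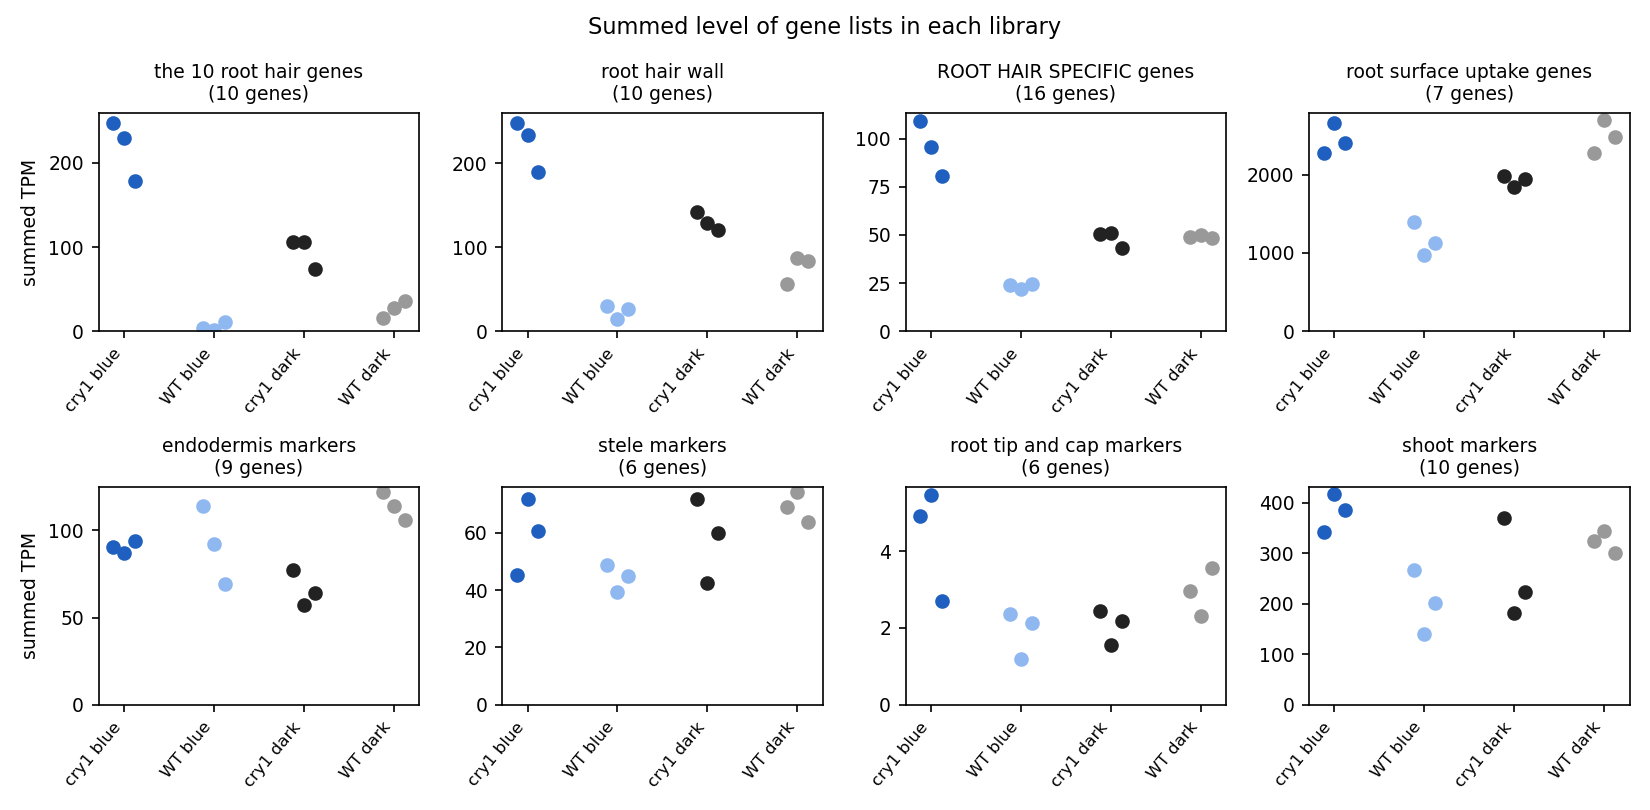
Summed TPM in the 12 libraries, by group, on a separate vertical scale for each list. The lists shown are the 10 root hair genes, root hair wall, RHS, root surface, endodermis, stele, root tip and cap, and shoot. The 10 root hair genes sum to 178 to 247 TPM in cry1 blue and to 1.13 to 10.9 TPM in WT blue, whereas the ranges for the endodermis markers overlap in blue light.

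Relatives of the wall genes that act outside root hairs showed a shared fall in wild type under blue light. Of 7, 6 fell in wild type and 0 rose, while 25.3% of all tested genes fell and 9.73% rose. In cry1 1, EXPA5, rose. In cry1 against WT in blue light 6 rose and 0 fell, with a median of 1.24, while 10.9% and 14.3% of all tested genes did. In the dark 0 rose and 1, EXPA1, fell. With TMM-type scaling 4 fell in wild type after blue light and 0 passed in the dark. EXPA8, an expansin, had 66.12, 39.46 and 65.46 TPM in cry1 blue, 20.23, 8.47 and 14.22 TPM in WT blue, 74.88, 81.84 and 74.64 TPM in cry1 dark, and 100.61, 121.45 and 121.52 TPM in WT dark. Its dark values were below those of WT in all 3 cry1 libraries, by -0.56 (SE 0.27), which did not pass (adjusted p = 0.127). The 7 summed to 1240 to 1500 TPM in cry1 blue, 330 to 606 TPM in WT blue, 915 to 1300 TPM in cry1 dark, and 1100 to 1370 TPM in WT dark.

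Read assignment could touch few of the 10 genes. Of the 1330 stretches of 50 bases in RSL2, 1 also occurs in another gene, AT2G14760, and 0 are shared for the other 9 genes. EXPA7 overlaps the opposite-strand gene AT1G12570 by 23 bases, and the strand setting of the counting is not given in the sources used here. AT1G12570 had 0.77, 0.94 and 0.58 TPM in cry1 blue and at most 0.24 TPM in the other libraries. EXPA18 overlaps AT1G62978 by 46 bases, and AT1G62978 was listed at 0 in all 12 libraries.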

How the data were processed

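The authors deposited 1 table of TPM values per library, 12 in all, each with 32833 genes. The unit follows from the column sums, 980965 to 996431 per library. Per the submitters' processing notes the build is TAIR10 and the programs include DESeq, Cufflinks, HISAT2 2.2.1.0, Bowtie2, TopHat and Trimmomatic 0.36, without a role for any. Per the labels' protocols total RNA went into libraries prepared with a TruSeq kit. TPM is relative, so some RNAs can fall in TPM because others rise.

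The 10 genes and the gene lists were chosen with earlier results of these data known. Tests covered the 20314 genes that reached 1 TPM in at least 3 libraries. They used limma-trend (limma 3.58.1 in R 4.3.3) on log2(TPM + 1), with 1 mean per group over all 12 libraries and Benjamini-Hochberg adjustment over all tested genes at 0.05. The fit was tested on simulated data. Per comparison it recovered 37 to 53 of 100 planted log2 changes of 1, and 92 to 93 of 100 changes of 2. Changes of 1 were thus often missed, and recovery in genes of low level was not measured. SE is that of the fitted difference. Named were all 10 genes, CRY1, up to 4 genes per list and comparison with the smallest adjusted p, all RSL and LRL genes, and the 8 genes most like the mean profile; single list members named beside these were chosen after their values were seen. Of 115 list entries 104 were used. Of the rest, RHS7 is PRP1, already among the 10 genes, and the others did not match symbol and identifier in the RefSeq table. Promoter bases and coordinates came from the RefSeq assembly TAIR10.1, and coding identity was computed with Biopython 1.88. The alternatives were other scalings, filters, pseudocount and fits, and leaving out each library.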

Additional observations from a re-analysis of the deposited data

Results flagged for a closer look

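In 4 of the 10 root hair genes all 3 blue values lay above the dark values in cry1 and below them in wild type. The light response in cry1 minus that in WT was 2.74 for PRP1, 3.88 for PRP3, 2.32 for LRX1 and 2.97 for RHS13 on the log2(TPM + 1) scale. The differences were not tested, since they contain the contrast that chose the genes.

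The same difference was tested with limma for listed genes outside the 10, 84 in all, of which 30 passed upward (35.7%) and 0 downward. Over all tested genes 6.84% passed upward and 2.33% downward, and the median was 0.26, against 0.93 for the 84. The 29 that passed and are named by the rule are given here, all positive. Among root hair wall genes it was 3.82 for AGP3 (adjusted p = 0.00124), 2.67 for EXT12 (0.00708), 2.28 for XTH14 (0.0127), 2.2 for LRX2 (0.0154) and 1.89 for XTH12 (0.0104). Among RHS genes it was 2.66 for RHS19 (0.00276), 1.88 for RHS18 (0.012), 1.68 for RHS12 (0.0161), 1.68 for RHS15 (0.021) and 1.23 for RHS5 (0.0362). Regulators of hair growth and pattern had 2.1 for GL2 (0.00342), 1.78 for LRL3 (0.046) and 1.54 for GTL1 (0.0213). Tip growth genes had 1.76 for COW1 (0.0103), 1.49 for SHV3 (0.018) and 1.17 for MRH1 (0.0315).

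Wall relatives outside root hairs had 2.55 for PRP4 (0.0156), 2.52 for EXPA8 (0.00342), 2.1 for PRP2 (0.0176), 1.67 for LRX3 (0.0478), 1.32 for EXPA5 (0.0295) and 1.07 for COB (0.0422). Root surface genes had 3.71 for TIP2;3 (0.00319), 2.35 for PHT1;1 (0.037), 2.26 for IRT1 (0.00291) and 1.44 for BGLU23 (0.0062); IRT1 was listed at 0 in WT blue, so its value depends on the pseudocount. The endodermis marker CASP1 had 1.09 (0.0287), and the shoot markers PDF1 and STM had 2.1 (0.0189) and 0.96 (0.0393).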

How the results depend on the processing

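The number of the 10 genes that rose with blue light in cry1, 7, was 1 with a pseudocount of 0.1 and 2 to 7 with a library left out. The number that fell in wild type, 4, was 4 to 5 with a library left out. It was 5 with a pseudocount of 0.1, where EXPA18 passed too, and 5 without the filter, where RSL2 did. For other root hair genes the 10 that rose and 1 that fell in cry1 became 2 in all with a pseudocount of 0.1, 6 with only the 2 groups compared, and 5 to 11 with a library left out, 5 without cry1 blue replicate 2 or cry1 dark replicate 3. The median genotype difference of the 10 genes was 3.49 in blue light and 1.21 in the dark, and 5.6 and 1.67 with a pseudocount of 0.1; with a library left out it was 3.31 to 3.71 and 0.95 to 1.35. RHD6 in wild type, 0.08, ran up to 0.32 with a library left out and turned to -0.04 without WT blue replicate 1, -0.04 without WT blue replicate 3 and -0.14 without WT dark replicate 2. In the dark, 15 other root hair genes rose and 4 fell with TMM-type scaling. The cause was not tested. Without the filter RSL2 fell in wild type (adjusted p = 0.0495). Replicate numbers did not pair the libraries: deviations of same-numbered libraries had a median correlation of -0.092, and 5 of 12 libraries correlated best with their own number. With the replicate block, 4 of the 10 genes were called in wild type and 6, without LRX1 (adjusted p = 0.075), in cry1, and other root hair genes gave 24, 15, 17 and 10 calls. A count-based test was not run, since the values are TPM, and protein features were not analysed here. TPM carries no depth, so the precision of low values is unknown.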

Other observations

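Genes outside the 10 that hold an RHE in the 300 bases before their start gave a broader set, chosen after the values of the 10 genes were seen. There were 245 such genes, of which 162 were tested with limma. In cry1 against WT under blue light 34 rose (21%) and 25 fell (15.4%), with a median of 0.17, while 10.9% and 14.3% of all tested genes did. In the dark 16 rose (9.88%) and 35 fell (21.6%), against 5.33% and 23.5% of all tested genes. Blue light raised 29 (17.9%) and lowered 6 (3.7%) in cry1, against 9.19% and 5.73% of all. In wild type it raised 25 (15.4%) and lowered 40 (24.7%), against 9.73% and 25.3% of all. Without genes on the lists used above, 156 remained, of which 29 (18.6%) rose and 25 fell in blue light.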
